A study of Homo sapiens with 8 samples.

Results

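The 50 genes described here encode proteins that take a human cell from the end of the G2 phase through mitosis to division: cyclins and their kinase, the mitotic kinases, the chromosomal passenger complex, the spindle checkpoint, kinetochore and spindle proteins, mitotic kinesins, the cytokinesis machinery, condensins, and the transcription factors FOXM1 and MYBL2. They were taken from a list of gene symbols, chosen with earlier results of these data known, and matched by Ensembl gene ID. All 50 were found among the 58735 gene IDs of the count table, and all 50 passed the filter on low counts, which left 15647 genes. RNA was sequenced from SRA01/04, a human lens epithelial line that was immortalised with viral large T antigen. The shSmurf1 group (4 libraries, genotype given as Smurf1 knockdown) carried a short hairpin RNA against SMURF1, a HECT-type ubiquitin ligase. The shControl group (4 libraries, genotype given as WT) carried a control hairpin. Cells of either group were kept for 48 h with recombinant human TGF-β2 (20 ng/ml), and every library is from such treated cells. The labels name no clone, no further hairpin against SMURF1 and no rescue, so the fall of SMURF1 and any other difference of the hairpin lines cannot be told apart. They do not say whether the cultures were grown separately, so the spread that p-values are set against is that between libraries and may be technical.

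As background, transcription of these genes is low in G1 and rises as cells approach mitosis. In resting cells the DREAM complex, built on the MuvB core, holds them off by binding a promoter element called the cell cycle homology region (CHR). In cycling cells MuvB joins MYBL2 and then FOXM1, which activate the same promoters together with NF-Y, a factor that binds CCAAT boxes. Many of the proteins are destroyed by the anaphase-promoting complex at the end of mitosis, and their mRNAs are widely read as proliferation markers. Viral large T antigen binds the RB family proteins on which this repression depends, and TGF-β is known to hold epithelial cells in G1. In bulk RNA, fewer cells in G2 or mitosis and less RNA per such cell cannot be told apart.

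RefSeq promoters (GRCh38.p14, 250 bases before to 50 after each start) were matched by symbol for 42 of the 50 genes, and the 8 without an entry were AURKA, BIRC5, BUB3, TTK, UBE2C, TPX2, RACGAP1 and FOXM1. They were searched on both strands for TTTGAA and TTTAAA, which are forms of the CHR, and for CCAAT, and overlapping matches were counted separately. Either CHR form was present for 37 of the 42 genes (88.1%), against 21.3% of the 10819 tested genes with a promoter. Counted over single promoters, since a gene may have several, it was present in 41 of 54 (75.9%), against 24.0% of all 35116. TTTGAA was held by 73.8% of the 42 genes and 63.0% of the 54 promoters, against 13.7% of tested genes and 15.2% of all promoters. TTTAAA was held by 33.3% of the genes and 27.8% of the promoters, against 10.9% and 12.2%. CCAAT was held by 76.2% and 68.5%, against 42.9% and 34.6%, and both kinds together by 64.3% and 55.6%, against 8.84% and 9.27%. These letters gathered near the start: a CHR form lay within 50 bases of it for 76.2% of the 42 genes and 61.1% of the 54 promoters, against 6.84% of tested genes and 7.62% of all promoters. A match is a description and neither a bound site nor a cause. The 5 promoters printed here, each on the plus strand from 150 bases before to 50 after the start, show how the letters sit in 1 gene that rose (PLK1), in 3 that fell (CDCA8, KIF23 and HMMR) and in 1 that did not pass the test (CCNB2). Capitals mark the 2 CHR forms and CCAAT, which reads ATTGG where it lies on the other strand.
PLK1: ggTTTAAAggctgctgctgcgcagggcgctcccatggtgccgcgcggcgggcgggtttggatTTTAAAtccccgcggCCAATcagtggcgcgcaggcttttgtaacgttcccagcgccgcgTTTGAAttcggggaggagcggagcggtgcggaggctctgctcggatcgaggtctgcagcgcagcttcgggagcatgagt
CDCA8: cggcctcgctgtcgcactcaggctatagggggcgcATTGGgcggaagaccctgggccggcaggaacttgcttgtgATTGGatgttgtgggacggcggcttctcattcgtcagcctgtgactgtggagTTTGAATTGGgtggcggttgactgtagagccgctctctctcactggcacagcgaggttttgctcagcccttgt
KIF23: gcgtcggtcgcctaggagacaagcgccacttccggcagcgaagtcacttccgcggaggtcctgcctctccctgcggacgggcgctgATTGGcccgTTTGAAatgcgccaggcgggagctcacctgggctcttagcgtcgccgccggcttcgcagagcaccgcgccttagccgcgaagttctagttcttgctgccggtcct
HMMR: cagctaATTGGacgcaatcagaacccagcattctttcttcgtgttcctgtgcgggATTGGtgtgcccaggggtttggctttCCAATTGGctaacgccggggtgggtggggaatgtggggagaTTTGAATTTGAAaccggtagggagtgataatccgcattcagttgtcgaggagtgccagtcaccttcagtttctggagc
CCNB2: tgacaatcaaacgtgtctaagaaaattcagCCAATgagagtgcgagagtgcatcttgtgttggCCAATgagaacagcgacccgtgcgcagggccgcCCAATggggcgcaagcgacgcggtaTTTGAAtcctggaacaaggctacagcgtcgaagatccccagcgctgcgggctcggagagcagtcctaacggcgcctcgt
The intervals are chr16:23678739-23678938 for PLK1, chr1:37692366-37692565 for CDCA8, chr15:69414199-69414398 for KIF23, chr5:163460482-163460681 for HMMR and chr15:59104996-59105195 for CCNB2. CCNB2 has 3 CCAAT boxes upstream of 1 TTTGAA, PLK1 has 3 CHR matches around a single CCAAT, and in CDCA8 the TTTGAA shares a base with an inverted CCAAT. The same letters stand in promoters of genes that went opposite ways. The 5 genes with neither CHR form (CCNA2, NEK2, AURKB, BUB1 and MYBL2) had a median log2 fold change of 0.00 with 0 past the test, and the 37 with one had a median of −0.07 with 2 higher and 9 lower. Of all genes tested 22.5% passed, and 30.3% of the more highly expressed ones (defined below), so 5 genes are too few to tell the sets apart. The 8 genes without an entry, among them BIRC5 (higher) and BUB3 (lower), are in neither set. The difference between the sets was not tested.

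**Figure D1:**
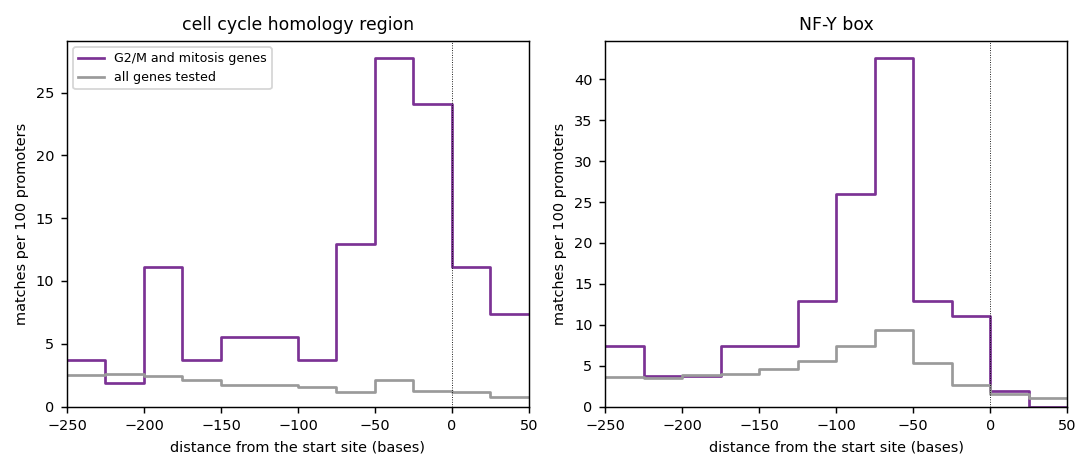
Matches to the CHR forms and to the NF-Y box per 100 promoters (vertical axis) in windows of 25 bases along the distance from the start site in bases (horizontal axis), for promoters of the 50 genes that have an entry and for all tested genes. CHR matches are most frequent 50 to 25 bases before the start, at 27.8 per 100 of the 54 promoters of these genes, and NF-Y boxes 75 to 50 bases before it, at 42.6 per 100.

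Library totals were 14688651 to 16789144 counts in shSmurf1 and 15000813 to 17030394 in shControl, and the 50 genes together held 0.808% to 0.861% of the counts in shSmurf1 libraries and 0.821% to 0.848% in shControl libraries. In CPM, the counts of a gene relative to the TMM-scaled library size, SMURF1 gave 51.4, 50.4, 51.4 and 51.2 CPM in shSmurf1 replicates 1 to 4, against 85.8, 93.3, 88.5 and 88.1 CPM in shControl, which is 57.5% of the control level (log2 fold change −0.80 ± 0.055 SE, edgeR adjusted p = 2.86e-09), while the median log2 fold change of its neighbours on chromosome 7 was −0.24. Of 9 lens epithelium markers 3 passed the filter, and the 9 together gave 88.8 to 97.8 CPM in shSmurf1 and 127 to 134 CPM in shControl. Of the 3, GJA1 was lower (44.8 CPM in shSmurf1 and 80.0 CPM in shControl on average, log2 fold change −0.83, edgeR adjusted p = 1.28e-08), SIX3 was lower (12.6 and 16.2 CPM, −0.37, adjusted p = 0.0106) and PAX6 did not pass (34.0 and 33.3 CPM). The rest of the 9, FOXE3, MAF, PROX1, PITX3, CRYAA and CRYAB, were each under 1 CPM in the mean of either group. Markers of immune cells (at most 0.672 CPM summed in any shSmurf1 library and 0.757 in any shControl library) and keratinocytes (at most 0.197 and 0.404) were near 0, with CD3E, MS4A1 and KRT14 at 0. Summed endothelial markers were 0.986 to 2.56 CPM in shSmurf1 and 2.02 to 3.10 CPM in shControl, melanocyte markers 2.50 to 3.65 and 2.98 to 4.61, and lens fibre markers 5.54 to 6.79 and 5.66 to 7.51, with LIM2 at 0. The part of these markers in the results was not tested. The library labelled shSmurf1 replicate 3 stood apart from its group, and counts with and without it are given below.

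Most of these genes did not pass the test between the lines. Summed over the 50, expression was 8232 ± 265 CPM in shSmurf1 (range 8000.4 to 8613) and 8427 ± 169 CPM in shControl (8273 to 8578; SD, n = 4 each). The ranges overlap only through shSmurf1 replicate 3, the highest at 8613, since the other 3 shSmurf1 libraries (8000.4 to 8167) lay below every shControl library. Of the 50, 3 were higher in shSmurf1 (BIRC5, CDC25B and PLK1), 10 were lower (CDCA8, KIF2C, HMMR, KIF23, BUB3, DLGAP5, NCAPG, SMC4, ECT2 and ANLN) and 37 did not pass edgeR's quasi-likelihood F test at a Benjamini-Hochberg adjusted p under 0.05 over all genes tested. That is 26% of the 50, beside 22.5% of all genes tested (10.3% higher and 12.2% lower). Where the average log2 CPM was 5 or more, genes passed at 30.3%, and 13 of the 46 members at that level passed (28.3%). The share of these genes that changed was thus near the background. Groups did not overlap in CPM for 13 members, 3 higher and 10 lower, beside 23.7% of all genes (10.6% higher and 13.1% lower). At an unadjusted p under 0.05 the same test gave 5 higher and 13 lower, 18 of the 50, beside 33.6% of all genes (16.2% higher and 17.4% lower).

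The changes were small. The median log2 fold change was −0.02, with an interquartile range of −0.12 to 0.06 and values from −0.31 to 0.39, and 25 of the 50 lay on each side of 0. The median over all genes tested was 0.01. The median absolute log2 fold change was 0.10 for the 50, 0.15 for all genes tested and 0.11 for genes averaging 5 or more in log2 CPM. Estimates lay within 0.32 of 0 on the log2 scale for 49 of the 50 genes, beside 76.6% of all genes and 89.7% of those at the higher expression. The 95% interval itself lay within that range for 43 genes, and for 35 of the 37 that did not pass. NUF2 (−0.34 to 0.04) and PRC1 (−0.35 to 0.83) were the exceptions among those 37. Standard errors were 0.042 to 0.28 with a median of 0.055.

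**Figure D2:**
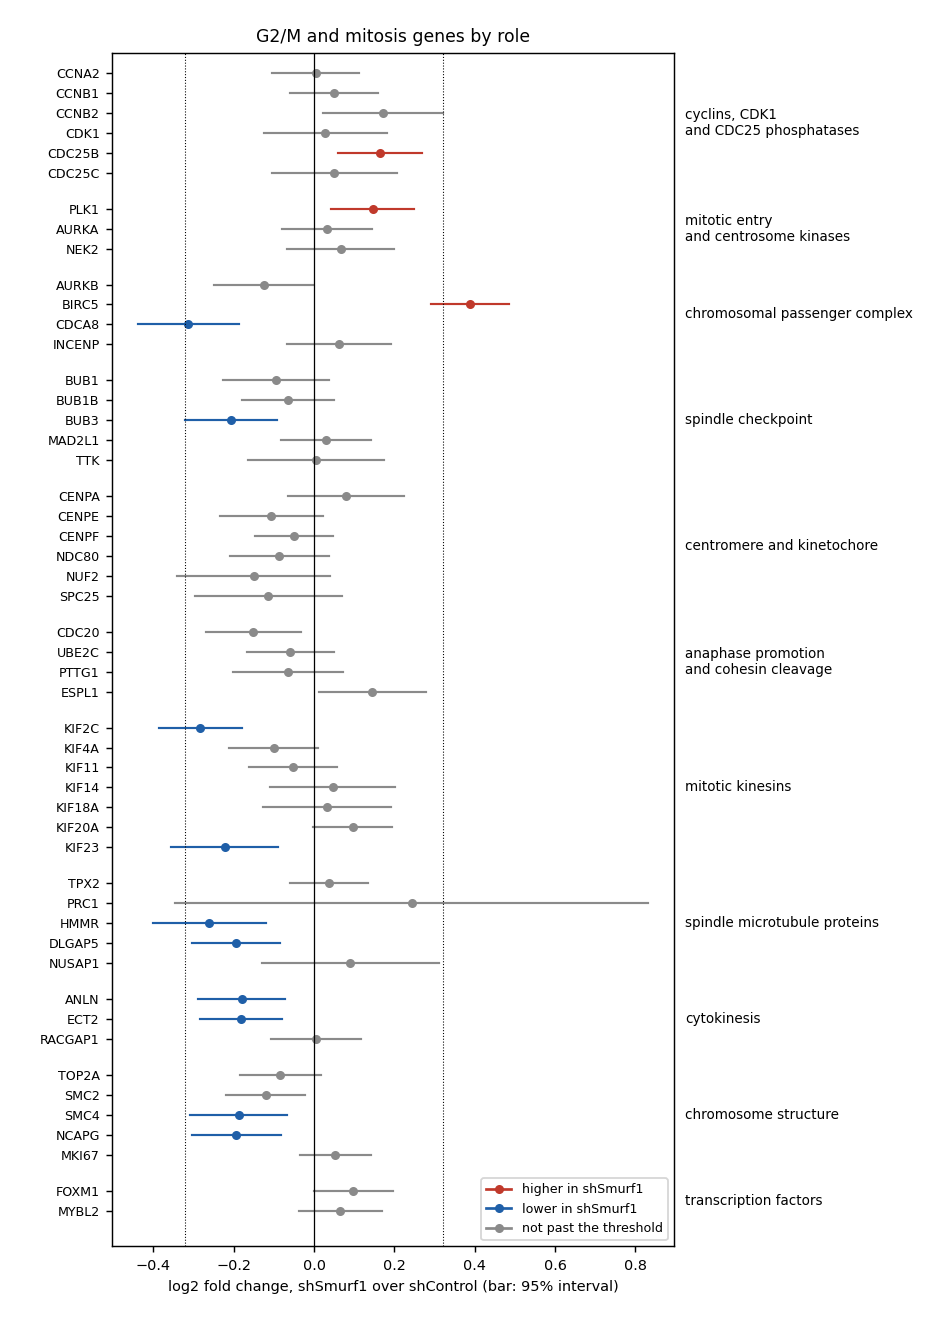
Log2 fold change of shSmurf1 over shControl for each of the 50 genes, arranged by role, with its 95% interval as a bar and genes past the test in colour. Nearly all points lie inside the lines drawn at a log2 fold change of 0.32 to either side of 0, BIRC5 is the highest at 0.39 and CDCA8 the lowest at −0.31.

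Levels between genes are compared per kilobase of exon, in CPM per kb. In the order of shControl levels, TPX2 led with 113 in shSmurf1 and 110.2 in shControl, followed by UBE2C (104 and 109), PTTG1 (82.3 and 86.1), TOP2A (79.3 and 84.0) and CDC20 (71.2 and 79.1). In shSmurf1, CCNB1 (79.0) and MKI67 (74.2) stood above CDC20. Lowest were PRC1 (0.602 and 0.507), NUSAP1 (6.48 and 6.09) and CENPE (7.27 and 7.83). PRC1 and NUSAP1 are uncertain, since other genes on the same strand share many of their exon bases. AC068831.7 shares 57.6% of those of PRC1, and AC087721.2 shares 62.2% of those of NUSAP1. Reads on shared bases may be lost or split between the genes. AC087721.2 averaged 0 CPM in shSmurf1 and in shControl. AC068831.7 averaged 13.3 CPM in shSmurf1 and 12.03 CPM in shControl, above PRC1 itself at 3.33 and 2.80 CPM.

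Among the cyclins, CDK1 and the CDC25 phosphatases, 1 of 6 was higher and 0 were lower, with a median log2 fold change of 0.05. CDC25B (ENSG00000101224, chromosome 20, 3786772 to 3806121, plus strand; coordinates here and below are those of GENCODE release 29 on GRCh38, found by gene ID) is a phosphatase that removes inhibitory phosphates from cyclin-dependent kinases at the G2/M boundary. CDC25B gave 241, 257, 231 and 264 CPM in shSmurf1 replicates 1 to 4, against 223, 223, 220.5 and 221 CPM in shControl. Each shSmurf1 value was above all 4 shControl values (log2 fold change 0.16 ± 0.050 SE, edgeR adjusted p = 0.0231). It lost its call in 8 of 17 settings, and with each library's GC trend removed its log2 fold change was 0.09 (adjusted p = 0.0812). Here and below, that removal also takes out any difference between the groups that follows GC content. CDK1, the kinase that drives entry into mitosis, gave 136, 135, 179 and 139.7 CPM in shSmurf1 replicates 1 to 4, against 151, 145, 141 and 141 CPM in shControl. Replicate 3 of shSmurf1 was the highest of all 8, the other 3 were below every shControl library, and the difference did not pass (log2 fold change 0.03 ± 0.073 SE, edgeR adjusted p = 0.832, 95% interval −0.13 to 0.18). CCNB1, the main mitotic cyclin partner of CDK1, gave 192, 201, 216 and 199 CPM in shSmurf1 replicates 1 to 4, against 204, 201, 189 and 187 CPM in shControl, and the groups overlapped (log2 fold change 0.05 ± 0.052 SE, edgeR adjusted p = 0.552). Log2 fold changes of CCNA2, CCNB2 and CDC25C were 0.00, 0.17 and 0.05, and none passed.

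The mitotic entry and centrosome kinases had 1 of 3 higher and 0 lower. PLK1 (ENSG00000166851, chromosome 16, 23677656 to 23690367, plus strand), the polo-like kinase needed for centrosome maturation, entry and cytokinesis, gave 138, 144, 143 and 146 CPM in shSmurf1 replicates 1 to 4, against 134, 129, 123 and 130.1 CPM in shControl. Its lowest shSmurf1 library was above its highest shControl library (log2 fold change 0.15 ± 0.050 SE, edgeR adjusted p = 0.0405). The call was lost in 11 of 17 settings, and with each library's GC trend removed the log2 fold change was 0.09 (adjusted p = 0.152). An antisense gene, AC008870.3, overlaps 11.6% of the exon bases of PLK1 and stayed under 1 CPM in the mean of either group. AURKA, the Aurora kinase of centrosomes, gave 119, 113, 129 and 124 CPM in shSmurf1 replicates 1 to 4, against 122, 116, 115 and 121 CPM in shControl, with groups that overlapped (log2 fold change 0.03 ± 0.054 SE, edgeR adjusted p = 0.727), and NEK2, a kinase that splits the centrosome pair, had a log2 fold change of 0.07 and did not pass.

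The chromosomal passenger complex corrects faulty kinetochore attachments and then moves to the spindle midzone. Its 4 subunits differed in direction, with 1 higher, 1 lower and 2 not past the test. BIRC5 (survivin, ENSG00000089685, chromosome 17, 78214186 to 78225636, plus strand), the subunit that brings the complex to centromeres, gave 192, 193, 186 and 192 CPM in shSmurf1 replicates 1 to 4, against 149.7, 144, 144 and 146 CPM in shControl. All shSmurf1 libraries were far above all shControl libraries, at 130.9% of the control mean (log2 fold change 0.39 ± 0.046 SE, edgeR adjusted p = 4.81e-06). CDCA8 (borealin, ENSG00000134690, chromosome 1, 37692418 to 37709719, plus strand), which binds BIRC5 directly, gave 80.8, 77.3, 86.3 and 82.8 CPM in shSmurf1 replicates 1 to 4, against 107, 99.6, 92.4 and 108 CPM in shControl. Every shSmurf1 library was below every shControl library, at 80.5% of the control mean (log2 fold change −0.31 ± 0.060 SE, edgeR adjusted p = 0.000727). INCENP, the scaffold that activates the kinase, gave 116, 114, 95.3 and 116 CPM in shSmurf1 replicates 1 to 4, against 103, 110.2, 105 and 105 CPM in shControl, with shSmurf1 replicate 3 lowest of all 8 and the other 3 highest (log2 fold change 0.06 ± 0.062 SE, edgeR adjusted p = 0.527). AURKB, the kinase itself, had a log2 fold change of −0.13 (adjusted p = 0.143 with edgeR) and averaged 69.5 ± 4.66 CPM in shSmurf1 and 75.8 ± 1.98 CPM in shControl (SD, n = 4 each).

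Of 5 spindle checkpoint genes 1 was lower and 0 were higher. The checkpoint delays anaphase until every kinetochore is attached. BUB3 (ENSG00000154473, chromosome 10, 123154277 to 123170467, plus strand), a WD-repeat protein that docks BUB1 and BUB1B at kinetochores, gave 224, 221, 253 and 211 CPM in shSmurf1 replicates 1 to 4, against 269.6, 263, 256 and 261 CPM in shControl. Groups were separate, though shSmurf1 replicate 3 came within a few CPM of the lowest shControl library (log2 fold change −0.21 ± 0.055 SE, edgeR adjusted p = 0.00943). BUB1, a kinase that marks centromeres, gave 94.3, 95.5, 109 and 88.5 CPM in shSmurf1 replicates 1 to 4, against 108, 106, 99.4 and 99.4 CPM in shControl, with overlap (log2 fold change −0.09 ± 0.063 SE, edgeR adjusted p = 0.316). BUB1B, MAD2L1 and TTK, the other checkpoint members, had log2 fold changes of −0.07, 0.03 and 0.00 and did not pass.

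At the centromere and kinetochore none of 6 genes passed the test in either direction, none passed at an unadjusted p under 0.05, and 5 of the 6 estimates were below 0 (median −0.10). CENPF, a large protein of the outer kinetochore, gave 337, 352, 343 and 367 CPM in shSmurf1 replicates 1 to 4, against 365, 364, 372 and 348 CPM in shControl, and the groups overlapped (log2 fold change −0.05 ± 0.046 SE, edgeR adjusted p = 0.485). CENPA, the centromeric histone H3 variant, had a log2 fold change of 0.08. Of the NDC80 complex, which grips microtubules, NDC80 (−0.09), NUF2 (−0.15) and SPC25 (−0.11) are in this group, and CENPE, a kinetochore kinesin, was at −0.11. SPC24, also a subunit of that complex, is counted below with the other kinetochore genes. It was higher in shSmurf1 without overlap of the groups (log2 fold change 0.29, edgeR adjusted p = 0.00168). The estimates for subunits of the complex thus differed in sign, but over all 8 libraries only SPC24 passed the test. Without shSmurf1 replicate 3, NDC80, NUF2 and CENPE fell with adjusted p = 0.027, 0.0049 and 0.036 from edgeR's quasi-likelihood test. With the GC trend removed as well none of these passed: NDC80 was at −0.02 (adjusted p = 0.742), NUF2 at −0.13 (adjusted p = 0.163) and CENPE at 0.01 (adjusted p = 0.932). That removal also takes out any difference between the groups that follows GC content, so it cannot decide these calls.

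No gene of the anaphase group passed either, with 4 tested. CDC20, the activator of the anaphase-promoting complex and 1 of 3 members on the short arm of chromosome 1, gave 154, 140.4, 134 and 153 CPM in shSmurf1 replicates 1 to 4, against 167, 162, 151 and 165 CPM in shControl. Only 1 shControl library lay as low as the shSmurf1 range, and the difference was just short of the threshold (log2 fold change −0.15 ± 0.056 SE, edgeR adjusted p = 0.0597). PTTG1 (securin), which restrains the protease that cuts cohesin, gave 159, 156, 192 and 156 CPM in shSmurf1 replicates 1 to 4, against 187, 171, 163 and 172 CPM in shControl, and shSmurf1 replicate 3 was the highest of all 8 (log2 fold change −0.07 ± 0.065 SE, edgeR adjusted p = 0.524). The protease itself, ESPL1 (separase), had a log2 fold change of 0.15 and UBE2C, the ubiquitin-conjugating enzyme of the complex, −0.06.

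Mitotic kinesins included 2 lower and 0 higher of 7. KIF2C (ENSG00000142945, chromosome 1, 44739818 to 44767767, plus strand), a kinesin that depolymerises microtubules at centromeres, gave 149, 143, 157 and 154 CPM in shSmurf1 replicates 1 to 4, against 179, 189, 185 and 180.3 CPM in shControl. The shSmurf1 libraries all lay below the shControl libraries, at 82.2% of the control mean (log2 fold change −0.28 ± 0.049 SE, edgeR adjusted p = 0.000278). KIF23 (ENSG00000137807, chromosome 15, 69414246 to 69448427, plus strand), a subunit of centralspindlin at the midzone, gave 123, 121, 137 and 106 CPM in shSmurf1 replicates 1 to 4, against 138, 142, 142 and 147 CPM in shControl, and again the groups were separate (log2 fold change −0.22 ± 0.063 SE, edgeR adjusted p = 0.0149). KIF20A, a kinesin of the midzone and cleavage furrow, gave 246, 257, 264 and 257 CPM in shSmurf1 replicates 1 to 4, against 247, 239, 229.6 and 243 CPM in shControl, with overlap (log2 fold change 0.10 ± 0.047 SE, edgeR adjusted p = 0.156). KIF11, the motor that pushes spindle poles apart, was at −0.05, and KIF4A, KIF14 and KIF18A at −0.10, 0.05 and 0.03, none past the test.

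Spindle microtubule proteins had 2 lower and 0 higher of 5. HMMR (ENSG00000072571, chromosome 5, 163460203 to 163491945, plus strand), a microtubule-binding protein of spindle poles, gave 74.2, 83.9, 92.8 and 74.4 CPM in shSmurf1 replicates 1 to 4, against 103, 96.4, 95.7 and 94.7 CPM in shControl. Its groups did not overlap, and shSmurf1 replicate 3 was the nearest to the control range (log2 fold change −0.26 ± 0.068 SE, edgeR adjusted p = 0.00827). DLGAP5 (HURP, ENSG00000126787, chromosome 14, 55148112 to 55191678, minus strand), which stabilises fibres at kinetochores, gave 200.5, 199, 227 and 196 CPM in shSmurf1 replicates 1 to 4, against 235, 241, 231 and 234 CPM in shControl, with the 3 other shSmurf1 libraries close together and replicate 3 near the lowest control (log2 fold change −0.19 ± 0.052 SE, edgeR adjusted p = 0.0104). TPX2, which activates AURKA on the spindle, gave 394, 399, 433 and 404 CPM in shSmurf1 replicates 1 to 4, against 411, 405, 386 and 388 CPM in shControl, and the groups overlapped (log2 fold change 0.04 ± 0.047 SE, edgeR adjusted p = 0.627). NUSAP1 (0.09 ± 0.11) and PRC1 (0.24 ± 0.28), a microtubule bundler of the midzone, had the widest standard errors of log2 fold change among the 50.

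Cytokinesis genes had 2 lower of 3 and 0 higher, with a median log2 fold change of −0.18. ECT2 (ENSG00000114346, chromosome 3, 172750682 to 172821474, plus strand), the exchange factor that activates RhoA at the division plane, gave 233, 233, 253 and 227 CPM in shSmurf1 replicates 1 to 4, against 271, 279, 261 and 262 CPM in shControl. ANLN (anillin, ENSG00000011426, chromosome 7, 36389806 to 36453791, plus strand), a scaffold that links the contractile ring to the membrane, gave 298, 311, 349 and 305 CPM in shSmurf1 replicates 1 to 4, against 367, 359, 351 and 353 CPM in shControl. For both genes the highest shSmurf1 library was below the lowest shControl library (log2 fold change −0.18 ± 0.049 SE, edgeR adjusted p = 0.0102 for ECT2; log2 fold change −0.18 ± 0.052 SE, edgeR adjusted p = 0.0159 for ANLN). RACGAP1, the partner of KIF23 in centralspindlin, gave 143, 141, 163 and 146 CPM in shSmurf1 replicates 1 to 4, against 148, 151, 145 and 147 CPM in shControl, with no difference past the spread between libraries (log2 fold change 0.00 ± 0.054 SE, edgeR adjusted p = 0.972).

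Chromosome structure genes had 2 lower of 5 and 0 higher. SMC4 (ENSG00000113810, chromosome 3, 160399274 to 160434962, plus strand), a core condensin subunit, gave 225, 222, 252 and 219 CPM in shSmurf1 replicates 1 to 4, against 268, 273, 269 and 235 CPM in shControl. It was the only member past the test whose groups overlapped, with shControl replicate 4 below shSmurf1 replicate 3 (log2 fold change −0.19 ± 0.058 SE, edgeR adjusted p = 0.0240). Its call too was lost in 8 of 17 settings, and its log2 fold change was −0.10 with the GC trend removed (adjusted p = 0.0654). NCAPG (ENSG00000109805, chromosome 4, 17810902 to 17844862, plus strand), a regulatory subunit of condensin I, gave 113, 121, 125 and 115 CPM in shSmurf1 replicates 1 to 4, against 131, 144, 136 and 132 CPM in shControl, with no overlap (log2 fold change −0.19 ± 0.053 SE, edgeR adjusted p = 0.0117). SMC2, the partner of SMC4, averaged 156 ± 3.87 CPM in shSmurf1 and 170.1 ± 3.46 CPM in shControl (SD, n = 4 each) and did not overlap, yet missed the threshold (log2 fold change −0.12 ± 0.047 SE, edgeR adjusted p = 0.0730). Opposite-strand genes overlap exons here, LCORL over 33.1% of NCAPG and TRIM59 over 18.5% of SMC4, and the labels describe no strand-marking step, so reads on those bases cannot be told apart.

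The 2 markers most used for proliferation did not pass. MKI67, which coats mitotic chromosomes, gave 921, 965, 941 and 973 CPM in shSmurf1 replicates 1 to 4, against 930.0, 939, 903 and 891 CPM in shControl. Its difference was within the spread of the libraries (log2 fold change 0.05 ± 0.042 SE, edgeR adjusted p = 0.404, 95% interval −0.03 to 0.14). TOP2A, the topoisomerase that disentangles sister chromatids, gave 485, 501, 551 and 503 CPM in shSmurf1 replicates 1 to 4, against 539.5, 564, 539.6 and 521 CPM in shControl, with overlap (log2 fold change −0.08 ± 0.048 SE, edgeR adjusted p = 0.234). FOXM1, the forkhead factor that activates this programme, gave 302, 318, 298 and 326 CPM in shSmurf1 replicates 1 to 4, against 282, 299, 292 and 288 CPM in shControl, and again the groups overlapped (log2 fold change 0.10 ± 0.047 SE, edgeR adjusted p = 0.153). MYBL2 had a log2 fold change of 0.07 and did not pass.

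**Figure D3:**
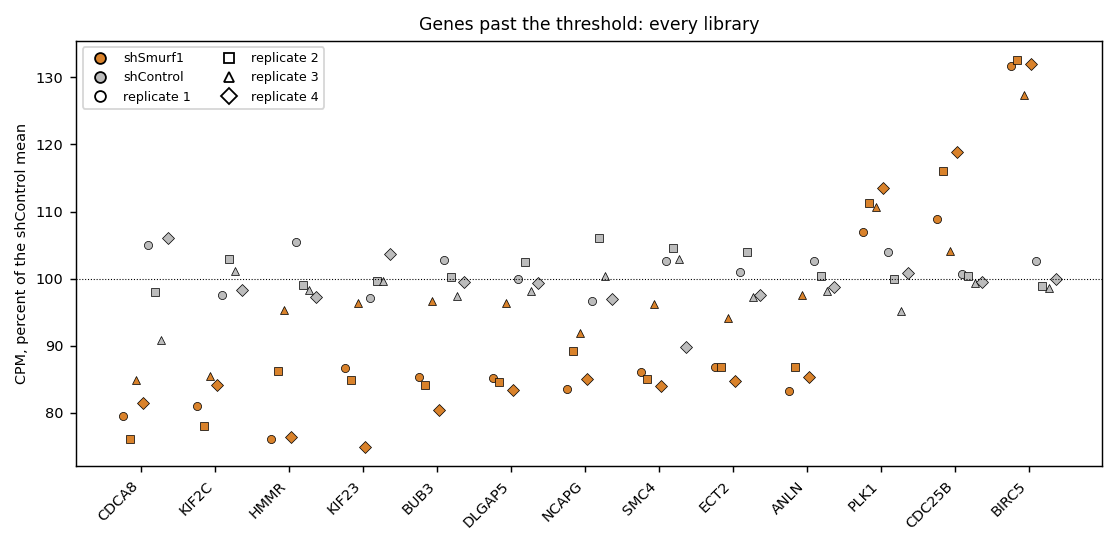
CPM as a percent of the shControl mean of the gene (vertical axis) in each of the 4 shSmurf1 and 4 shControl libraries. The 13 genes past the test stand along the horizontal axis, and a dotted line marks the shControl mean. The points of BIRC5 stand for 186 to 193 CPM in shSmurf1 and 144 to 149.7 CPM in shControl, and SMC4 is the single gene whose points overlap.

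Several of these changes lay where neighbouring genes had shifted the same way. For each gene the median log2 fold change of up to 50 tested genes on each side, cell cycle genes left out, was set beside its own. A neighbourhood was counted as shifted at a median of at least 0.12 in size, and 8 members lay in one. Of these 8, 7 were past the test (6 lower, ANLN among them against its neighbours, and 1 higher), and of the 42 elsewhere, 6 were (4 lower and 2 higher). Calls were frequent among the neighbours themselves too. Of those of BIRC5 68% were called higher, and of those of ANLN 37%, beside 10.3% of all genes tested. Around each of the other members in shifted neighbourhoods 30% to 43% were called lower, beside 12.2% of all genes tested. BIRC5, on the long arm of chromosome 17, had a log2 fold change of 0.39 beside a local median of 0.40. On the short arm of chromosome 1, KIF2C was at −0.28 beside −0.18, CDCA8 at −0.31 beside −0.15 and CDC20 at −0.15 beside −0.16. On chromosome 3, ECT2 and SMC4 were at −0.18 and −0.19, each beside a local median of −0.16, and on chromosome 14 DLGAP5 was at −0.19 beside −0.22. ANLN on chromosome 7 went against its neighbours, at −0.18 beside 0.15. TOP2A, also on the long arm of chromosome 17, had neighbours with a median of −0.03. The 6 members past the test outside shifted neighbourhoods were BUB3, KIF23, HMMR and NCAPG, all lower, and CDC25B and PLK1, both higher. What moves the neighbours was not tested.

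**Figure D4:**
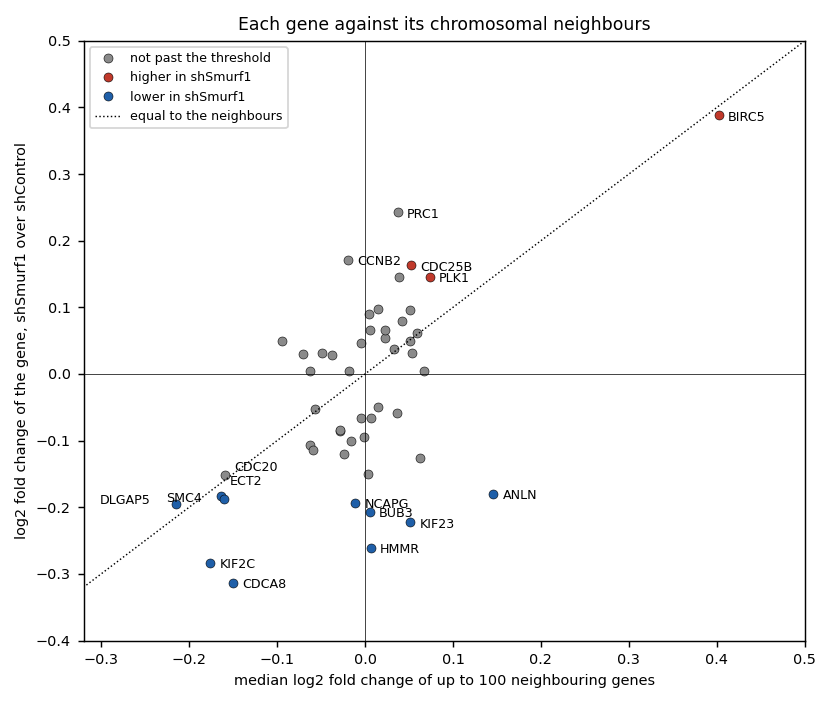
Log2 fold change (shSmurf1 over shControl) of each of the 50 genes on the vertical axis against the median log2 fold change of its neighbours on the horizontal axis, with the line of equal values. BIRC5 stands alone at the upper right on the line, at 0.39 beside 0.40, and ANLN lies below it at −0.18 beside 0.15.

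The library labelled shSmurf1 replicate 3 moved the counts. It held the highest shSmurf1 value for 36 of the 50 members (72%), beside 36.2% of all genes tested. Across all genes, deviations from the overall mean correlated with transcript GC content at r = −0.31 in this library and at 0.22 to 0.35 in the other 3 shSmurf1 libraries, and at −0.19 to −0.09 in shControl libraries. Members had a median GC content of 42.9%, beside 48.4% for all genes tested. Over the 50 members, log2 fold change and GC content correlated at Pearson's r = 0.39 and Spearman's rho = 0.45, given as a description since the genes share the same 8 libraries. With each library's GC trend removed, r was 0.04, but the removal itself takes out such a relation, so this value is no separate result. The trend had opposite signs in shControl libraries and in shSmurf1 replicates 1, 2 and 4. Its removal therefore also takes out any difference between the groups that follows GC content. For calls lost or gained with it, such a difference and a trend of the libraries cannot be told apart.

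Without shSmurf1 replicate 3, 25 members passed, 6 higher and 19 lower, beside 33.7% of all genes, and the median log2 fold change was −0.08. All 13 passed again, with BUB1, CENPE, KIF11, KIF4A, NDC80, NUF2, PTTG1, SMC2 and TOP2A added among the lower and ESPL1, FOXM1 and INCENP among the higher. With the GC trend removed over all 8 libraries, 14 passed, 3 higher and 11 lower, beside 28.2% of all genes, and the median was 0.00. CDC25B, PLK1 and SMC4 were then lost, and CCNB2 and KIF20A (higher) and AURKB and CDC20 (lower) were gained. With both changes, an alternative chosen after the data were seen, 16 passed, 6 higher and 10 lower, beside 28.2% of all genes. Of the 13, CDC25B, PLK1, SMC4, ECT2 and NCAPG were lost there, and AURKB, CCNB2, CDC20, ESPL1, KIF20A, MAD2L1, NEK2 and PTTG1 were gained. Removal of the GC trend alone also brought 4 genes that still passed closer to 0 by over 1.5 times, to log2 fold changes of −0.12 for DLGAP5 and NCAPG, −0.11 for ANLN and −0.10 for ECT2. BIRC5, CDCA8, BUB3, KIF2C, HMMR and DLGAP5 passed in all 17 settings that have a test. Subtraction of the neighbourhood median has no test and is not among the 17. It put BIRC5 at −0.014 and DLGAP5 at 0.021, the reverse of their own directions.

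**Figure D5:**
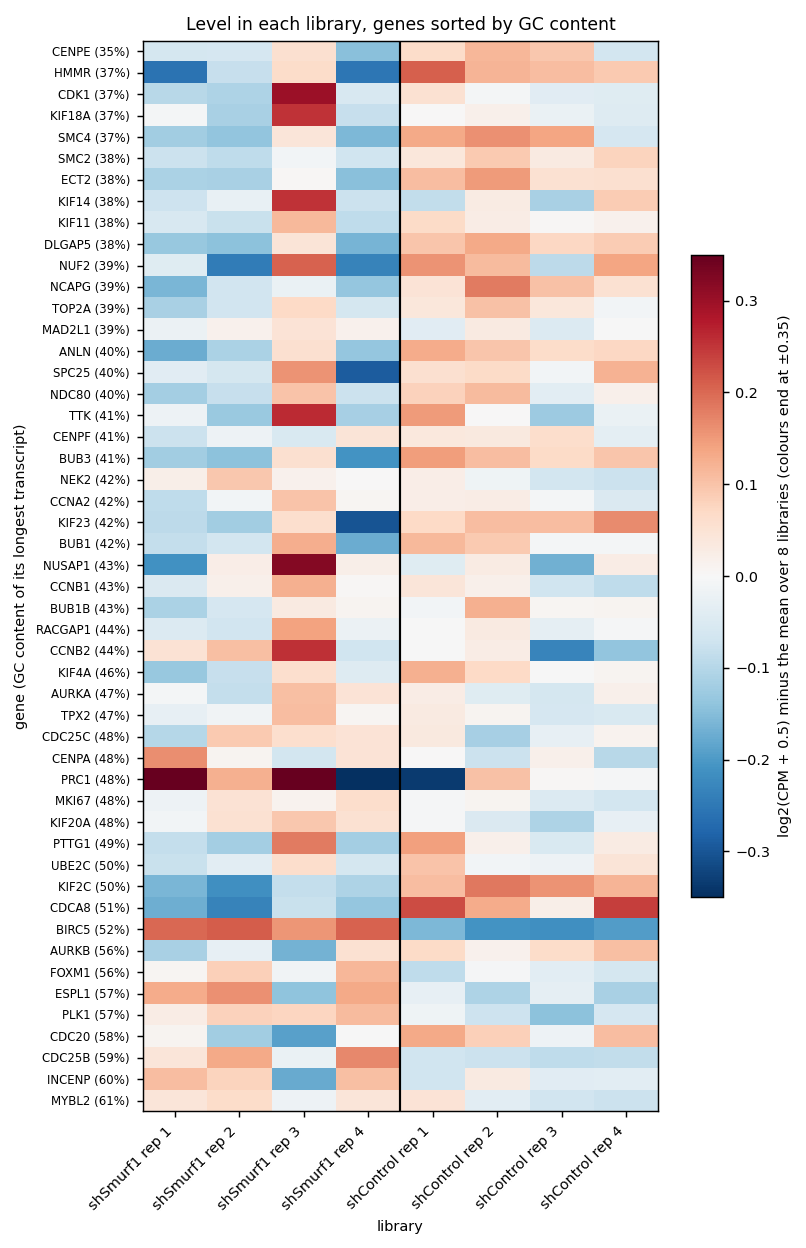
Deviation of log2 CPM from the mean of the 8 libraries for each of the 50 genes (rows, sorted by the GC content of the longest transcript) in the 4 shSmurf1 and then the 4 shControl libraries (columns). The column of shSmurf1 replicate 3 is raised for most genes, with 36 of the 50 at their highest shSmurf1 value there, while PRC1 runs past the colour scale.

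Other cell cycle genes were read from 8 lists that exclude the 50, of which 183 of 184 genes were tested, 21 were higher and 22 lower (23.5%). Shares here and below stand beside 22.5% of all genes tested and 30.3% of those averaging 5 or more in log2 CPM. The 5 mitotic lists held 116 tested genes with 9 higher and 10 lower (16.4%), and the 3 upstream and G1/S lists 67 with 12 higher and 12 lower (35.8%). Of 33 other kinetochore genes 3 were higher and 2 lower, led by CENPP (0.46) and SPC24 (0.29) and by CENPI (−0.28) and BOD1 (−0.16). Of 19 genes of the anaphase-promoting complex and its regulators 3 were higher and 1 lower, among them ANAPC15 (0.54), ANAPC11 (0.43, beside a local median of 0.37) and CDC16 (−0.24). Of 17 other condensin and cohesin genes 3 were lower and 0 higher, including NCAPG2 (−0.37, beside −0.23) and CDCA5 (−0.32), which protects cohesin. Of 29 other spindle, centrosome and cytokinesis genes 3 were higher and 3 lower, with HAUS8 (0.27), FAM83D (0.21), CEP55 (−0.30) and TUBG1 (−0.21). Of 18 other regulators of mitotic entry and exit only WEE1, the kinase that inhibits CDK1, passed (−0.26). These values are log2 fold changes.

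Upstream of the mitotic programme, 3 of 17 DREAM, MuvB and E2F genes were lower and 0 higher, among them TFDP1, the partner of E2F factors (−0.34), and E2F8, an E2F repressor (−0.29). Of 10 CDK inhibitors and antiproliferative genes 2 were higher and 3 lower. CDKN1C was at 0.61 and TOB1 at 0.22, while CDKN1A (p21) was at −0.32 and CDKN2C at −0.23, the last beside a local median of −0.22. The groups of CDKN1A overlapped, with shSmurf1 replicate 1 at 332 CPM beside 329 to 347 CPM in shControl. CDKN1C was low, at 7.10 CPM in shSmurf1 and 4.66 CPM in shControl on average. Of 40 tested G1/S and DNA replication genes 10 were higher and 6 lower. TK1, a thymidine kinase on the long arm of chromosome 17, was at 0.47 beside a local median of 0.41 and GINS3, of the replicative helicase, at 0.34. CDK6, a G1 kinase, was at −0.62 beside −0.29, and CCNE1, the cyclin of the G1/S step, at −0.48. All are log2 fold changes past the same edgeR test. That list had 40% of its 40 tested genes past the test and the CDK inhibitors 50% of 10, beside 22.5% of all genes tested. Among genes averaging 5 or more in log2 CPM the share was 30.3%. These lists are small, and their difference from the 50 or from all genes was not tested.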

How the data were processed

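RNA of SRA01/04 cells was measured in 8 libraries, 4 labelled shSmurf1 and 4 labelled shControl, all with TGF-β2; per the labels' protocols, mRNA was captured on poly-T beads before random priming of cDNA. The deposited table holds raw counts of reads for each gene, which the authors made with CASAVA, fastp, HISAT2 2.0.5 and featureCounts 1.5.0-p3, per the submitters' processing notes. Which build and annotation they counted on is not given in the sources used here. All 58735 gene IDs were found in GENCODE 29, which gave symbols, positions, exon lengths and GC content. Genes were kept by filterByExpr of edgeR 4.0.16 in R 4.3.3 (minimum count 10), scaled by TMM, and tested by the two-sided quasi-likelihood F test, adjusted by Benjamini-Hochberg over the 15647 genes kept. The threshold was an adjusted p of 0.05. An SE is a log2 fold change over the square root of its F. CPM uses the scaled library size, so its precision rests on totals of 14688651 to 17030394 counts. Reads that fit overlapping or near-identical genes may have been dropped or shared out.

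The members and the gene lists were chosen with earlier results of these data known. Values per library are given for up to 3 members past the test and the highest-expressed other member of each of 11 role groups, for members on chromosome arms 1p and 17q, and for MKI67, FOXM1 and CDK1; up to 2 genes higher and 2 lower are named per other list. SMC2, AURKB and other genes named outside that rule were chosen after their values were seen. The other settings were DESeq2 1.42.0, its size factors, library totals alone, limma 3.58.1 (voom), no filter, a block for the replicate number, a filter at 1 CPM in 4 libraries, the GC trend removed (a lowess curve with a span of 0.3 in each library), the neighbourhood median subtracted, and each library left out. The count test was tested on simulated data. No set test was run.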

Additional observations from a re-analysis of the deposited data

Results flagged for a closer look

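For each of the 50 genes, the highest and lowest library of each group of 4 was compared with the rest by Dixon's ratio at its 95% critical value. That made 100 groups, of which chance flags about 1 in 20, and 9 were flagged. Of the 9, 7 were in shSmurf1 replicate 3, which was above the other 3 shSmurf1 libraries for CDK1 (179 CPM, others 135 to 139.7), PTTG1 (192 CPM, others 156 to 159), KIF11 (233 CPM, others 202 to 207), KIF14 (79.4 CPM, others 63.1 to 65.3) and DLGAP5 (227 CPM, others 196 to 200.5). The same library was below them for INCENP (95.3 CPM, others 114 to 116) and ESPL1 (91.4 CPM, others 110.4 to 113). Among shControl libraries, replicate 2 was high for BUB1B (106 CPM, others 97.0 to 98.2) and replicate 4 was low for SMC4 (235 CPM, others 268 to 273). The cause was not tested.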

How the results depend on the processing

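DESeq2, DESeq2 size factors, library totals alone, limma-voom and both other filters on low counts left 12 to 14 members past the test. The labels do not say whether replicate numbers pair the libraries. Same-numbered libraries correlated in their deviations at −0.067 to 0.032 and other pairs at −0.062 to 0.077. Of the 4 shSmurf1 libraries, 2 correlated best with their own number. Values this small cannot decide whether a culture or day was shared. With the replicate block 3192 genes were called (1418 higher and 1774 lower) and 12 members, 2 higher and 10 lower, with PLK1 lost. Leaving out 1 library at a time gave 2763 to 5348 genes called (1216 to 2601 higher, 1547 to 2747 lower), 9 to 25 members (1 to 6 higher, 8 to 19 lower), medians of −0.08 to −0.01 for the members, and 35 to 85 genes of the other lists (14 to 37 higher, 19 to 48 lower). The highest counts came without shSmurf1 replicate 3. With that library left out and the GC trend removed, 6 members and 33 genes of the other lists were higher. With the neighbourhood median subtracted, BIRC5 was at −0.014 and DLGAP5 at 0.021, the reverse of their own directions, and this has no test. PLK1 passed in 6 of 17 settings, CDC25B and SMC4 in 9 each, KIF23 and NCAPG in 15, and ANLN and ECT2 in 16. PLK1 was lost on leaving out any library except shSmurf1 replicate 3. Among values not past the test, 22 changes of sign occurred over 13 members. The cause of these differences was not tested.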
